A study of Drosophila melanogaster with 6 samples.

Results

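The regions described here are the wide ChIP-seq peaks of the chromosome arms of Drosophila melanogaster at the white prepupal stage, when the animal has just begun metamorphosis. They were chosen by width: a peak had to lie on X, 2L, 2R, 3L, 3R or 4 and to be 2000 bp wide or more. The rule kept 304 peaks of the 2355 on the arms (12.9%) and of the 9881 in the whole list (3.08%), and the other 2051 arm peaks are called narrow. Width is a product of the peak call and so is the score, so both are given as descriptions with no test. The series holds 6 libraries, 3 of ChIP DNA and 3 of input DNA, and 1 list of peaks. Nothing in the labels says that the replicates are separate collections of animals. Both groups came from strain Y cn bw sp, whose listed alleles are y[1] and oc[R3.2], then Gr22b[1], Gr22d[1], cn[1] together with CG33964[R4.2], bw[1] and sp[1], and further LysC[1], lab[R4.2] and MstProx[1] with GstD5[1] and Rh6[1]. No treatment is named for either group. Chromatin came from whole prepupae, so the cell types in which a region was precipitated cannot be told apart. The list holds no value of a single library, so the spread between replicates is unknown for every value below.

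The antibody is a crude preparation of a mouse monoclonal whose listed target is tango. Tango, the fly relative of vertebrate ARNT, belongs to the bHLH-PAS family and pairs on DNA with partners such as Single-minded, Trachealess and Spineless, which act in the midline, the tracheae and the appendages. The sample titles start with TCF, a name used for the factor through which Wnt signals reach their target genes, and the labels do not say which name applies. Sequence-specific factors contact a short stretch of DNA, and their ChIP peaks are usually about as wide as the sheared fragments. Wide peaks are better known from chromatin marks and from strings of close sites. The regions are not ascribed to a protein here.

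Width among the members ran from 2013 to 11621 bp, the median being 3759.5 bp and the quartiles 2597.75 and 4897.5 bp. Narrow peaks had a median of 503 bp. Together the broad peaks covered 1202 kb, which was 49.1% of all bases under arm peaks. Of the 304, 109 were 2 to 3 kb wide, 195 were 3 kb or wider, 67 were 5 kb or wider and only 4 exceeded 8 kb. At the limit itself the list was continuous. The 5 narrowest members were 2013 to 2040 bp wide, with scores of 23.37, 20.65, 25.91, 20.07 and 386.44 in order of width. The 5 widest peaks outside the limit were 1945 to 1987 bp wide, with scores from 22.45 to 179.39. Off the arms, 37 of 7526 peaks were at least as wide: 10 on U and 7 on Uextra, which are strings of unplaced scaffolds, and 20 in the mapped heterochromatin, the widest being one of 9205 bp on U.

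The widths of the members were not spread smoothly but gathered at a few values. The fullest bin of 100 bp held 22 peaks of 2500 to 2600 bp, and 18 more were 2400 to 2500 bp wide. A further gathering held 17 peaks of 4200 to 4300 bp and 11 of 4300 to 4400 bp, while the bin of 4000 to 4100 bp held 1. There were 8 peaks of 5400 to 5500 bp and 10 of 5500 to 5600 bp, and 2 in the next bin.

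Gatherings at other lengths appeared once neighbouring arm peaks with gaps under 500 bp were joined. The 304 peaks then fell into 242 joined regions, of which 80 consisted of a broad peak alone. Spans of 8700 to 9100 bp were found for 22 of the 242, between 8770 and 9011 bp with a median of 8952.5 bp. The wider window below it, 8000 to 8700 bp, held 9 regions, and the one above, 9100 to 10000 bp, held 2. These 22 regions were spread over the long arms, in numbers of 3 (3R) to 6 (2L) each. They were put together from 2 to 6 peaks each, 10 around 1 broad peak and 12 around 2, and 34 of the 304 members lay in them. A median of 94.3% of their length was under peaks. The highest score within each was 29.9 to 104.06 (median 32.5).

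Regions of this span, alike in length because the window chose them, were made up in more than 1 way. On 3L the region at 17078247 to 17087205 was 8959 bp long and held a broad peak of 7685 bp, one of the 10 widest, with a narrow peak beside it. On 2L the region at 996849 to 1005716 was 8868 bp long and consisted of a peak of 7730 bp and a narrow one. On 3L the region at 16938987 to 16947956 spanned 8970 bp with 5 peaks, 2 of them broad, 2456 and 2868 bp wide. On 3R the region at 21658537 to 21667483 spanned 8947 bp with 5 peaks, and its 2 broad peaks were 2424 and 2881 bp wide. The first pair thus had 1 long piece of similar width, and the second pair had broad pieces of similar widths.

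Shorter spans recurred as well. Joined regions of 6300 to 6500 bp numbered 16 and those of 6800 to 7000 bp numbered 13, with median highest scores of 53.98 and 38.19. Another 26 spanned 4200 to 4500 bp. Most of these were single broad peaks (median 1 peak per region, median 100% of the length under peaks). They largely repeat the gathering of widths at 4200 to 4400 bp. Between 7000 and 8000 bp, a wider window, there were 12. With gaps under 1 kb joined 26 regions spanned 8700 to 9100 bp and 15 spanned 6300 to 6500 bp. The other windows kept counts of 13 (6800 to 7000 bp) and 26 (4200 to 4500 bp, again with a median of 1 peak). The window of 8000 to 8700 bp then held 17, so the gathering at 8700 to 9100 bp stood out less on its lower side. The windows were set after the spans had been seen, and no test was made.

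**Figure D1:**
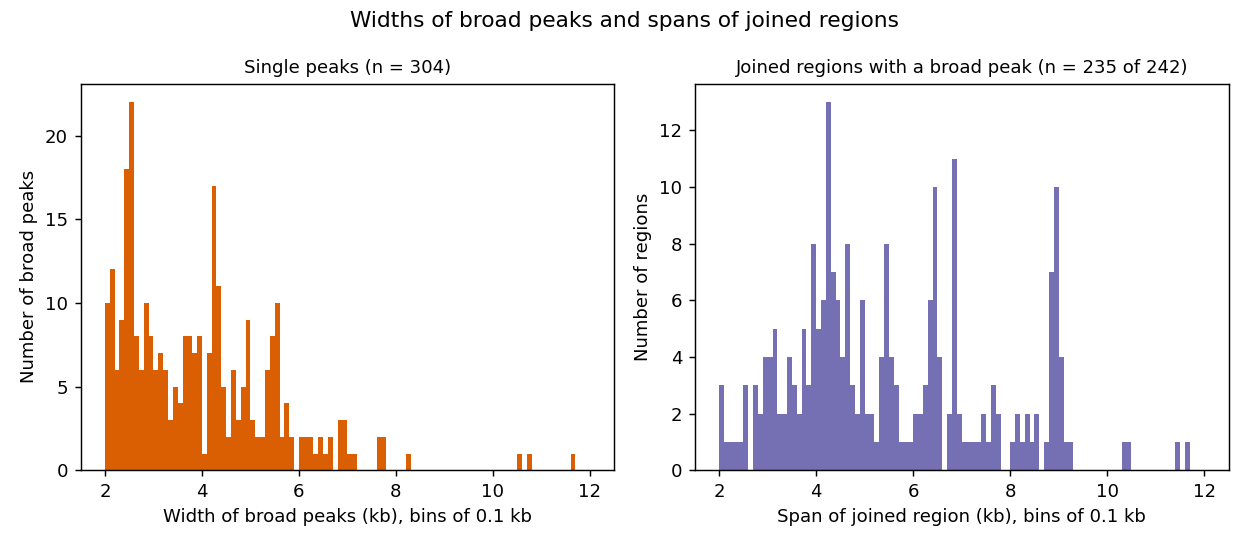
Left, number of broad peaks by width in bins of 0.1 kb (304 peaks). Right, number of joined regions that hold a broad peak by span in bins of 0.1 kb, after gaps under 500 bp were joined (235 of 242 regions, the 7 of 12 kb or more left out). Peaks gather at 2400 to 2600, 4200 to 4400 and 5400 to 5600 bp. Joined regions gather at 4200 to 4500 (mostly single peaks), 6300 to 6500, 6800 to 7000 and 8700 to 9100 bp.

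Spans of neighbouring broad peaks were partly taken from the same places. Among 65 pairs of consecutive broad peaks with a gap under 5 kb, 20 (30.8%) had an outer span of 6700 to 7200 bp, a window set on the spans seen. Of the 20, 8 lay inside the joined regions of 8700 to 9100 bp already counted. In 12 of these pairs the gap was under 500 bp and in the other 8 it was 926 to 2027 bp. The shorter peak had a median width of 2465.5 bp and the longer a median of 3984 bp. The shorter one came first by coordinate in 12 pairs and second in 8. On 2R, for example, the pair at 14479775 to 14486679 had widths of 2443 and 4377 bp, while on 3L the pair at 11492957 to 11499935 had widths of 4371 and 2551 bp. The scores in these pairs were 14.61 to 39.72, below the upper quartile of the broad peaks (45.3).

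Scores of broad peaks lay in a narrow band with a long upper tail. The median was 30.94 (95% order-statistic interval 29.22 to 31.99), the quartiles were 25.26 and 45.3 and the range was 14.61 to 797.14. Narrow arm peaks had a lower median, 18.92, but a higher maximum, 927.33. Of the broad peaks 222 (73.0%, Wilson 95% interval 67.8 to 77.7%) scored from 20 to 50, against 564 narrow peaks (27.5%, interval 25.6 to 29.5%). Scores of 10 to 20 were found for 12 broad and 865 narrow peaks, scores under 10 for 215 narrow peaks and no broad one, and 682 narrow peaks (33.3%) scored less than the lowest broad peak. At the top the intervals of the classes overlapped: 28 broad peaks (9.21%, interval 6.45 to 13.0%) and 212 narrow peaks (10.3%, interval 9.09 to 11.7%) scored 100 or more. Intervals here and below are for counting error alone, and they take each peak as independent although neighbours are not. Across the 304 broad peaks, which come from the same libraries and the same call, width and score had a Spearman's rho of 0.41.

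Score did not climb evenly with width. In the classes from 2000 up to 4000 bp the median score stayed at 27.21 to 27.88, and in the class of 4000 to 4500 bp it was 50.16. Wider than that it was 26.23 (4500 to 5000 bp), 49.74 (5000 to 6000 bp), 34.13 (6000 to 8000 bp) and, for the 4 peaks of 8000 bp or more, 102.695. Scores in the class of 4000 to 4500 bp were divided. Of its 41 members 21 scored between 50 and 70, while 2 of 35 did so at 3500 to 4000 bp and 0 of 25 at 4500 to 5000 bp. The 21 were 4133 to 4482 bp wide, with scores of 50.16 to 69.83 and a median of 55.72. The other 20 of the class scored 17.79 to 44.42.

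The 21 peaks stood alone more often than the other 20. An arm peak lay within 500 bp of 3 of the 21 and of 16 of the 20. None of the 21 had another broad peak within 5 kb, against 11 of the 20, and their median distance to the nearest broad peak was 180 kb against 0.586 kb. They were found on 2L (8), 3L (5), 2R (4), X (2) and 3R (2). Among them were 2L 17820475 to 17824684 (4210 bp, score 58.35), 3L 3601791 to 3606112 (4322 bp, 56.15), 2R 12427611 to 12431934 (4324 bp, 51.84) and 3R 8746348 to 8750707 (4360 bp, 63.31), each more than 30 kb from the next arm peak on either side. This set was picked out by width and score after both had been plotted.

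**Figure D2:**
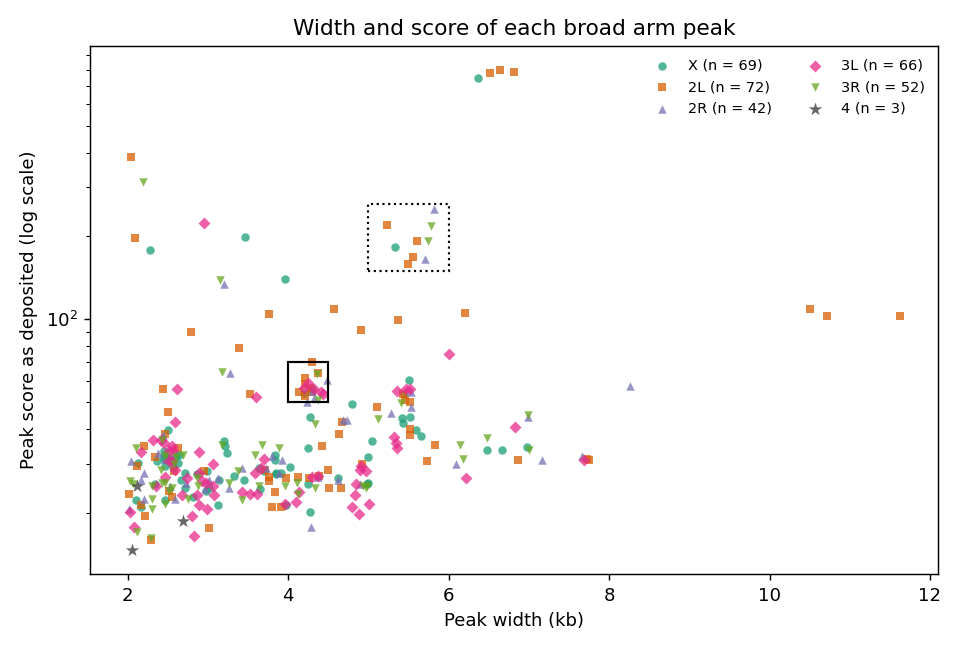
Score as deposited (log scale) against width in kb for each of the 304 broad peaks, with a colour and a marker for each arm. The solid box holds the 21 peaks of 4000 to 4500 bp with scores of 50 to 70, and the dotted box the 9 peaks of 5000 to 6000 bp with scores of 150 or more. The 3 highest and the 3 widest peaks are all on 2L.

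Peaks of about 5.4 kb had a recurrent companion. Of 24 broad peaks 5300 to 5600 bp wide, 13 (54.2%) had an arm peak 200 to 300 bp away, in every case on 1 side only. Of the other 280 broad peaks 49 (17.5%) had one at that distance on some side. The windows of width and gap were set on values already seen, so the 2 shares are a description and were not tested. In the 13 the gap was 232 to 262 bp, the broad peak was 5360 to 5529 bp wide and its score was 38.19 to 99.72 with a median of 53.55. The companion scored 18.63 to 35.59 and had a median width of 676 bp. It lay at the lower coordinate 8 times and at the higher coordinate 5 times. On 3L at 23379769 to 23385284 the broad peak of 5516 bp scored 56.15 and its companion, 260 bp below it, was 676 bp wide with a score of 29.9. Nearby on the same arm, at 23366089 to 23371448, the broad peak of 5360 bp scored 54.85, and its companion of 676 bp with a score of 35.59 lay 242 bp above it. In 1 of the 13, on 2L at 21449731 to 21455094, the companion was itself broad (4389 bp). The 13 were partly counted above already. With their companions, several formed joined regions of 6300 to 6500 bp, among them 3L 23378833 to 23385284 (6452 bp). Others fell outside that window, such as 3L 23366089 to 23372366 (6278 bp). Most of the 13 also belonged to the gathering of widths at 5400 to 5600 bp. The 3 descriptions are therefore not separate recurrences.

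A second set of similar width scored much higher. Of 39 broad peaks 5000 to 6000 bp wide, 30 scored below 100 and 9 scored 158.19 to 250.7, with none between. The 9 were 5239 to 5818 bp wide, and 4 lay on 2L, 2 each on 2R and 3R and 1 on X. Within 600 bp of 8 of them, on 1 side, there was a smaller peak. For 3 of these 8 the gap was 527, 530 or 535 bp and the smaller peak was 563, 558 or 562 bp wide, with scores of 27.54, 24.94 and 23.37. They belonged to 2L 16513393 to 16518947, X 10991464 to 10996801 and 2L 12558447 to 12564055. For 2 others, 3R 96493 to 102236 and 2R 5039576 to 5045284, the gap was 360 and 363 bp and the smaller peak scored 98.11 and 132.54. The peak at 3R 1272409 to 1278185 had a smaller one 346 bp away whose score, 217.92, equalled its own, and 2R 3703878 to 3709695 (250.7) had one of 207.55 at 210 bp. These smaller peaks thus ranged from a score far below the broad peak to the same score.

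The highest scores among the members belonged to 4 peaks of 6372 to 6821 bp, the trio on 2L at 20176693 to 20196890 and X 1521966 to 1528337, which scored 742.96 to 797.14. The members of the trio started 6889 and 6674 bp apart. After them came 2 compact peaks at a distance from any other, 2L 7048102 to 7050141 (2040 bp, score 386.44) and 3R 2915092 to 2917283 (2192 bp, score 312.48). The nearest arm peak was 50944 bp from the first and 344686 bp from the second. The other 4 of the 10 highest were 2R 3703878 to 3709695 (250.7), 3L 543539 to 546491 (222.82), 2L 21691845 to 21697083 (219.32) and the 3R peak with 217.92. The 10 highest-scoring and the 10 widest members had no peak in common.

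The 10 widest members were 7005 to 11621 bp wide. The 3 over 10 kb belonged to a single group on 2L described below and scored 102.42 to 109.01. Of the other 7, one on 2R at 5368514 to 5376780 scored 57.47 and 6 scored 30.94 to 33.77, near the median of all members. Among these, 3 had the same score of 30.94: 2L 22499156 to 22506909 (7754 bp), 3L 17079521 to 17087205 (7685 bp) and 2R 17627193 to 17634356 (7164 bp). The widest member on X, at 10162220 to 10169197, was 6978 bp wide with a score of 34.49, and the widest on 3R, at 18066010 to 18073014, was 7005 bp wide with 33.77. The 10 lowest scores, 14.61 to 19.48, belonged to peaks of 2055 to 4291 bp. An arm peak lay within 5 kb of 8 of these, much as for all 304 broad peaks (250, 82.2%). The lowest was 4 698622 to 700676. Equal scores were common, since 240 of the 304 broad peaks shared their score with another and 10 had the score 24.94.

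Broad peaks had closer neighbours than narrow ones did. Another arm peak lay within 500 bp of 224 broad peaks (73.7%, interval 68.5 to 78.3%) and of 906 narrow peaks (44.2%, interval 42.0 to 46.3%). For a broad neighbour within 5 kb the shares were 36.8% of broad peaks (112, interval 31.6 to 42.4%) and 16.4% of narrow peaks (336, interval 14.8 to 18.0%). For a narrow neighbour within 500 bp they were 62.2% (189, interval 56.6 to 67.4%) and 34.8% (714, interval 32.8 to 36.9%). The difference was not tested, since peaks are not replicates. Arm peaks were never closer than 50 bp, and 261 gaps on the arms were under 100 bp.

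Most narrow peaks at the edge of a broad peak scored lower than it did. Narrow arm peaks also scored lower as a class (median 18.92 against 30.94), and pairs lying apart were not compared. In 240 pairs of a broad peak and the narrow peak next to it with a gap under 500 bp, the narrow one had the lower score in 220 (91.7%). The median ratio of its score to that of the broad peak was 0.64, with quartiles of 0.55 and 0.82. The 224 narrow peaks in these pairs had a median width of 680 bp and a median score of 21.39, and the other 1827 narrow peaks had medians of 466 bp and 18.35. The lowest ratio, 0.068, was at 2L 21691845 to 21697083, where a peak with a score of 14.86 lay beside one of 219.32. The highest, 1.93, was at 2L 7977791 to 7982420, where a narrow peak of 1122 bp scored 74.63 and the broad one 38.57.

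Broad peaks without near neighbours were wider and scored higher at the median. The 80 with no arm peak within 500 bp had medians of 4150 bp and 38.395. They include most of the 21 peaks picked out above by width and score, since only 3 of the 21 had an arm peak within 500 bp. The medians of the 80 thus rest in part on that set and were not computed without it. The 104 with an arm peak within 500 bp on both sides had medians of 3219.5 bp and 30.42. Their scores were close together, with quartiles of 26.23 and 33.86 against 24.94 and 57.03 for the 80. Consecutive broad peaks with a gap under 500 bp also had like scores. Of 44 such pairs 39 (88.6%) were within 1.5-fold of each other, against 112 of 210 pairs (53.3%) that were 50 kb or more apart. The pairs were not matched for score, and peaks without near neighbours had more widely spread scores. Whether closeness itself goes with like scores was therefore not tested.

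**Figure D3:**
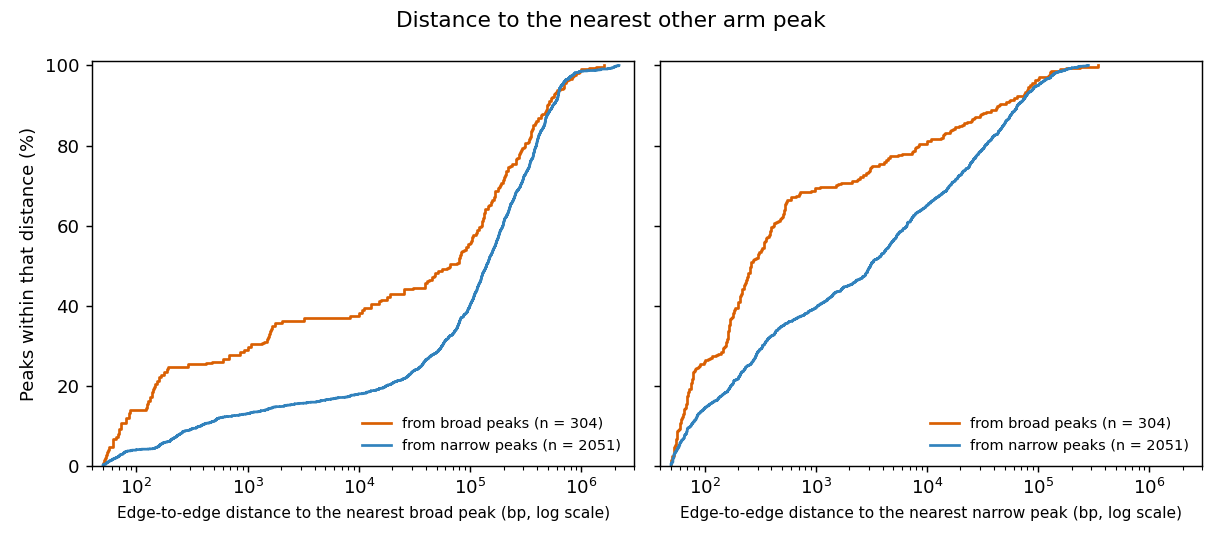
Share of peaks (%) whose nearest broad peak (left) or nearest narrow peak (right) lies within a given edge-to-edge distance in bp (log scale), for 304 broad and 2051 narrow arm peaks. In both panels the curve for broad peaks is higher at short distances, with 36.8% against 16.4% at 5 kb on the left and 62.2% against 34.8% at 500 bp on the right.

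Joined across gaps under 20 kb, the 304 broad peaks formed 226 groups: 174 single peaks, 43 pairs, 2 triples and 7 groups of 4 or more that held 38 peaks. The widest of these 7 lay on 2L at 21430189 to 21543676, where 11 broad peaks covered 64.7 kb of 113 kb. The tandem repeats of the histone genes, which supply the histones for DNA replication, are on this arm near the centromere, and whether these peaks lie in them was not analysed here. Their median score was 99.72 and their widths ran from 2634 to 11621 bp, and 3 gaps inside the group measured exactly 9999 bp, a length found 4 times on all arms. Within it, 2 neighbouring members of 2634 and 4389 bp scored only 34.13 and 27.21, and their outer span, 7165 bp, was among the 20 spans of 6700 to 7200 bp.

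The other groups were more compact. On 2L at 8088607 to 8117215, 6 broad peaks covered 93.9% of 28.6 kb. They scored 25.91 to 35.22 except for the peak of 6211 bp in their middle, which scored 105.7. On 2L at 6428279 to 6444365, 4 broad peaks covered 86.8% of 16.1 kb with scores of 24.63 to 38.57. The group with the trio, at 20159476 to 20196890, also held a peak of 4297 bp with a score of 54.41, one of the 21 described above, 12920 bp from the trio. On 3L at 13800056 to 13815163, 4 broad peaks covered 88.1% of 15.1 kb with scores of 21.24 to 33.4. On X at 3492878 to 3513233, 5 broad and 5 narrow peaks covered 91.6% of 20.4 kb, and the broad ones scored 20.07 to 39.72.

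A group also stood at the tip of 3L. There 4 broad peaks at 141 to 17262 covered 94.6% of 17.1 kb, the gaps inside were 50 to 125 bp, and the scores, 21.54 to 23.68, differed by less than in the other 6 of these groups. The first peak of 2L was broad as well, at 147 to 5257, with a width of 5111 bp and a score of 48.08. So was the last of 2R, which ended at 21041394. The first of 3R, at 96493, was broad too, but it lay on the centromere side and not at a tip. The first and last peaks of X and of 4 were narrow, as were the first of 2R and the last of 2L, 3L and 3R.

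**Figure D4:**
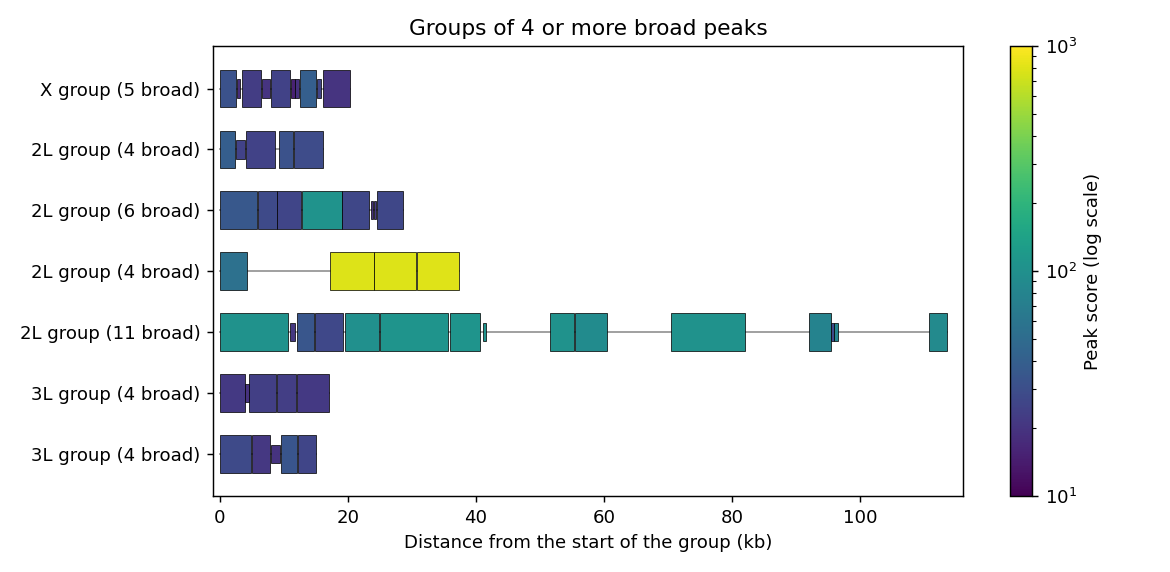
The 7 groups of 4 or more broad peaks, drawn to scale by distance from the start of each group in kb. Tall boxes are broad peaks, short boxes are narrow peaks between them, and colour gives the score on a log scale. The group of 11 on 2L is the longest at 113 kb, and the group with 3 bright boxes holds the peaks with scores of 779.97 to 797.14.

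By arm, 2L held 72 broad peaks (23.7%, interval 19.3 to 28.8%), X 69 (22.7%, interval 18.3 to 27.7%), 3L 66 (21.7%), 3R 52 (17.1%), 2R 42 (13.8%, interval 10.4 to 18.1%) and 4 only 3. Narrow peaks differed most on X, with 15.7% of them (interval 14.2 to 17.3%), and on 2R, with 18.6% (interval 17.0 to 20.3%). Their shares on 2L (20.9%), 3L (22.8%), 3R (20.7%) and 4 (1.41%) lay inside the intervals of the broad peaks. Per Mb of span 2L held 3.18 broad peaks, X 3.08, 3L 2.71, chromosome 4 2.44, 2R 2.00 and 3R 1.88. Of all peaks on an arm, 17.6% were broad on X and 9.93% on 2R. Broad peaks made up 57.4% of the covered bases of X and 55.2% of those of 2L, and 28.5 to 46.2% of those of the other arms.

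The broad peaks of 2L were the widest and the highest at the median, at 4284.5 bp (order-statistic interval 3907 to 4630 bp) and 39.335 (interval 31.29 to 53.55). Medians on the other long arms were 3220 to 3908 bp and 28.38 to 30.94. Of the 72 on 2L, 11 belonged to the single group with a median score of 99.72, and these 2L medians were not computed without it. More than 2 Mb from either end of the arm, which leaves that group out, the median score on 2L was 38.57. The other long arms had 27.88 to 32.165 there. Of the 28 members with scores of 100 or more, 2L held 15, X 5, 3R 4, 2R 3 and 3L 1. The groups of 4 or more described above held 9 of the 28, all of them on 2L. The 3 on chromosome 4, much of which is packed as heterochromatin, had scores of 14.61, 18.63 and 24.94.

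Along the arms the broad peaks were somewhat more frequent at the ends. The outer 2 Mb on the centromere side of the 5 long arms made up 8.46% of their span and held 47 of 301 broad peaks (15.6%, interval 12.0 to 20.1%) and 264 of 2022 narrow peaks (13.1%, interval 11.7 to 14.6%). The outer 2 Mb on the telomere side held 39 broad peaks (13.0%, interval 9.62 to 17.2%) and 201 narrow ones (9.94%, interval 8.71 to 11.3%). The intervals of the 2 classes overlapped at both ends. Of the 47 on the centromere side, 2L held 18, X 11, 3L 9, 2R 5 and 3R 4.

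Scores went opposite ways in the 2 classes on the centromere side. Broad peaks there had a median of 52.69, against 30.94 in the middle of the arms and 25.58 on the telomere side. Narrow peaks had medians of 14.735, 20.07 and 19.48 in the same places. Without the 2L group of 11, the 36 remaining broad peaks of the centromere side had a median of 33.075. By arm the median of broad peaks on the centromere side was 54.85 against 27.88 in the middle on 3L (9 peaks). On 2R it was 54.85 against 31.29 (5 peaks). On 3R it was 111.625 against 29.225, but the 4 peaks there scored 191.96, 31.29, 217.92 and 16.17. That median fell between 31.29 and 191.96 and describes none of the 4. On X, with 11 peaks, the centromere-side median was lower, 29.56 against 32.165. On 2L the direction turned on the group of 11: the median was 84.115 with it (18 peaks) and 29.9 without it (7 peaks), against 38.57 in the middle.

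**Figure D5:**
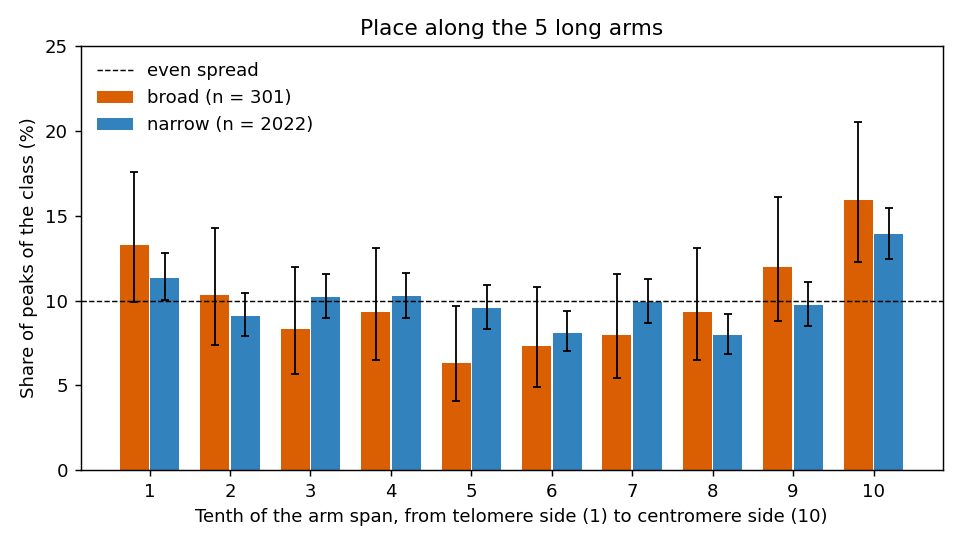
Share of broad (n = 301) and narrow (n = 2022) peaks of the 5 long arms in 10 equal parts of the arm span, from the telomere side (1) to the centromere side (10). Bars give the share in percent, error bars the Wilson 95% interval and the dashed line an even spread. The part next to the centromere is the fullest for both classes, with 15.9% of broad and 13.9% of narrow peaks.

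In bins of 1 Mb the broad peaks were thinly spread apart from a few places. Of 123 bins 16 held none, 57 held 1 or 2, 40 held 3 to 5 and 10 held 6 or more. The 10 fullest contained 80 broad peaks. They were led by 2L 21 to 22 Mb with 14, then X 0 to 1 Mb and X 3 to 4 Mb with 9 each, and 3L 0 to 1 Mb with 8, as many as 2L 8 to 9 Mb and 2L 20 to 21 Mb. In the same order these bins held 34, 17, 30, 32, 27 and 24 narrow peaks. The fullest bin for narrow peaks, 2R 15 to 16 Mb with 49, held no broad one.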

How the data were processed

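Per the submitters' processing notes, BWA, MACS2 and CASAVA (1.7.0.2, 1.7.0.3) were used, with build BDGP5. The header of the deposited list names FlyBase release 5 and its source column MACS. The only value used is the peak score, 1 number per peak deposited by the authors, whose statistic is not stated. Sources used here do not give the caller's threshold, how input or replicates entered the call, or what was done with reads matching more than 1 place. Read depth is unknown, so no read-based error can be given.

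Widths, gaps (edge to edge), joins, medians and shares were computed with Python 3.11.15, numpy 2.4.6, pandas 2.3.3 and scipy 1.17.1, and drawn with matplotlib 3.10.9. Gap, join and interval routines were checked on made-up peaks. Arm span runs from the first to the last peak. The members, limits and lists were chosen with earlier results of these data known. Named peaks are the 10 widest, the 10 highest and the 10 lowest in score, the 5 at each side of the limit, groups of 4 or more and the extremes of each arm, and any others were picked after their values were seen. No test was made, because peaks are not replicates. Gene names, sequences and motifs were not analysed here: the reference gene table belongs to release 6, and coordinates of the releases were not mixed. Whether regions of like span share sequence was not tested. Alternatives were other width limits, gaps, end windows and the omission of the largest group.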

Additional observations from a re-analysis of the deposited data

How the results depend on the processing

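Of 25 alternatives to 9 results, 12 stayed within the interval of the reported value (for the number of peaks, within 1.5 times it), and 13 did not, most of them by construction of the limit. These counts depend on how wide each interval is. That of the share of covered bases, 49.01 to 49.14%, takes each base as independent. For the centromere-side median of 2L it was 29.9 to 102.97, so the fall to 29.9 without the group of 11 counted as within it. The number of broad peaks, 304 at 2000 bp, was 195 at 3000 bp and 67 at 5000 bp. Their share of covered arm bases, 49.1%, was 54.9% at 1500 bp, 38.0% at 3000 bp and 70.4% with gaps under 500 bp joined. The median score was 34.13 at 3000 bp. The share with another broad peak near, 36.8% for gaps under 5 kb, was 28.9% under 1 kb and 42.8% under 20 kb, and 14.9% among peaks of 3000 bp or more, since fewer peaks then count as neighbours. The share with a narrow peak near was 69.4% under 1 kb and 77.3% under 5 kb. The share near the centromere side was 7.31% for 1 Mb and 24.9% for 4 Mb. Narrow peaks had 7.91% and 20.8% there, so at 1 Mb the broad share was the lower. Without the group of 11 on 2L, the share with a broad neighbour was 35.5% and that near the centromere side 12.4%, below the 13.1% of narrow peaks for 2 Mb. The median score near the centromere side was then 33.075 in place of 52.69, whose own interval was wide, 30.94 to 56.15. The 3 values without the group, and the one for 2L above, were added after the data were seen. No paired analysis was possible because peaks were deposited without values per library, which also prevented leaving out a replicate.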
